A study of Solanum lycopersicum and Solanum pennellii and Solanum pimpinellifolium with 52 samples.

Results

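Tomato genes of domestication that set fruit size, fruit shape and branching were followed through 52 RNA-seq libraries of wild and cultivated tomato. The members are 9 genes out of 28298 gene models in the deposited table, chosen by name from cloned tomato loci for fruit size, fruit shape and branching. The rule itself uses no measured value, but the choice was made with earlier results of these data known. The seedling experiment holds 28 libraries grown in standard light, 7 from each of 4 species: the wild S. pimpinellifolium (accession LA1589), S. habrochaites (accession LA1777) and S. pennellii (accession LA716), and the cultivated S. lycopersicum (LA3475, the cultivar M82). The factorial experiment holds 24 libraries of S. pennellii LA716 and S. lycopersicum M82, in which inflorescence, vegetative meristem, leaf, stem, root and seedling were each taken under artificial shade (red to far-red ratio 0.48) and artificial sun (ratio 3.1) at 95 µE, with 1 library for each combination. Each species is a single accession, and the plants' age is not given in the sources used here. All plants were grown in a chamber, and the submitters used a different RNA extraction method for seedlings than for the mixed tissues.

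Cultivated tomato bears much larger fruit than its wild relatives, and a small set of cloned loci accounts for a large part of that change. WUSCHEL and CLV3 form a feedback loop that sets the size of the floral meristem and through it the number of locules (seed chambers), fw2.2, KLUH and CSR act on fruit weight through cell number or cell size, and OVATE and SUN act on fruit shape. LATERAL SUPPRESSOR (LS) and BLIND, both transcription factors, are needed for side shoots to form. Many of these genes are known to act in small groups of dividing cells, so whole organs dilute their transcripts; in such bulk samples fewer expressing cells and less RNA per cell cannot be told apart.

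Levels are the deposited RPKM (read counts scaled by gene length and library depth). Each value was a multiple of what a single read is worth, so the read count behind each was recovered. The libraries held 1477052 to 5556059 reads, with a median of 2309105. At that depth KLUH had 308 to 1306 reads in each seedling species, whereas CSR and SUN had 8 to 37 and the others fewer. Before any species comparison, the tissue labels were checked against marker genes. All 4 inflorescence markers were highest in inflorescence and all 3 root markers in root, though their sums differed between libraries of the same tissue. The inflorescence markers summed to 43.6 RPKM in shade and 123 RPKM in sun in S. pennellii inflorescences, against 210.1 RPKM in shade and 221.8 RPKM in sun in S. lycopersicum inflorescences. The root markers summed to 132.5 RPKM in shade and 176.4 RPKM in sun in S. pennellii roots, against 33.8 RPKM in shade and 132.1 RPKM in sun in S. lycopersicum roots. The part of these differences in the species results below was not tested. The libraries labelled vegetative meristem went against their label: the 2 meristem markers summed to 5.46 to 8.02 RPKM there, against 111 to 219 RPKM in stem and 67.9 to 80.3 RPKM in inflorescence, and the summed green-tissue markers (1.05e+05 to 1.68e+05 RPKM) were as high as in leaf (8.99e+04 to 1.63e+05 RPKM). They are called the libraries labelled meristem below, and a low value of a gene there says little about meristems.

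KLUH stood out in both experiments: its transcript was 3.44 to 3.83 times lower in the seedlings of each of the 3 wild species than in cultivated seedlings, and 4.10 times lower in the inflorescences of S. pennellii than in those of S. lycopersicum. Between the wild species no KLUH difference was called. fw2.2 was read mainly in root, at levels that overlapped between the species, WUSCHEL was read in the factorial experiment in inflorescence libraries and in no others, and CLV3 was near the limit of detection throughout. In the seedling experiment, genes were tested when they reached 1 RPKM in at least 7 of 28 libraries, which 3 of the 9 genes did (KLUH, CSR and SUN). In the factorial experiment the limit was 1 RPKM in at least 2 of 24 libraries, which all 9 passed. Differences were fitted with limma on log2(RPKM + 1), a scale that understates changes of low genes, and a difference was called at a Benjamini-Hochberg adjusted p under 0.05, over all genes tested, together with a log2 difference of at least 1. Whether the libraries of a group came from separate plants is not stated, so the p-values measure the spread between these libraries. In the factorial experiment the 2 libraries of a species and tissue are 1 shade and 1 sun library, not replicates. The spread used there is what a light term shared by the tissues of a species leaves over. It therefore also holds any light response particular to a tissue.

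**Figure D1:**
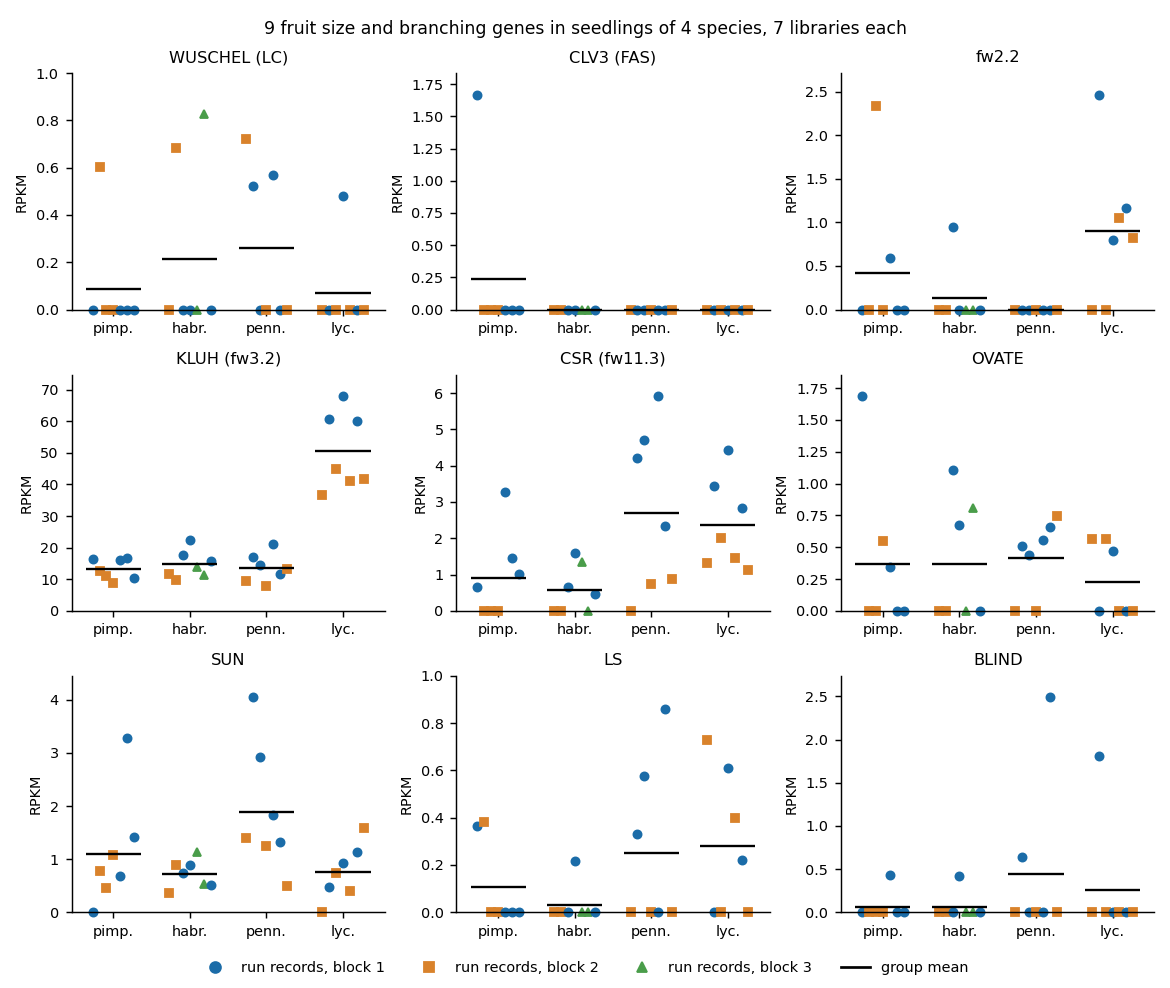
RPKM of the 9 genes in each seedling library, by species, with run-record blocks as symbols and the group mean as a bar. The 7 S. lycopersicum libraries of KLUH sit between 36.7 and 68.0 RPKM, above all 21 wild libraries, and no other gene passes 5.92 RPKM in any seedling library.

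**Figure D2:**
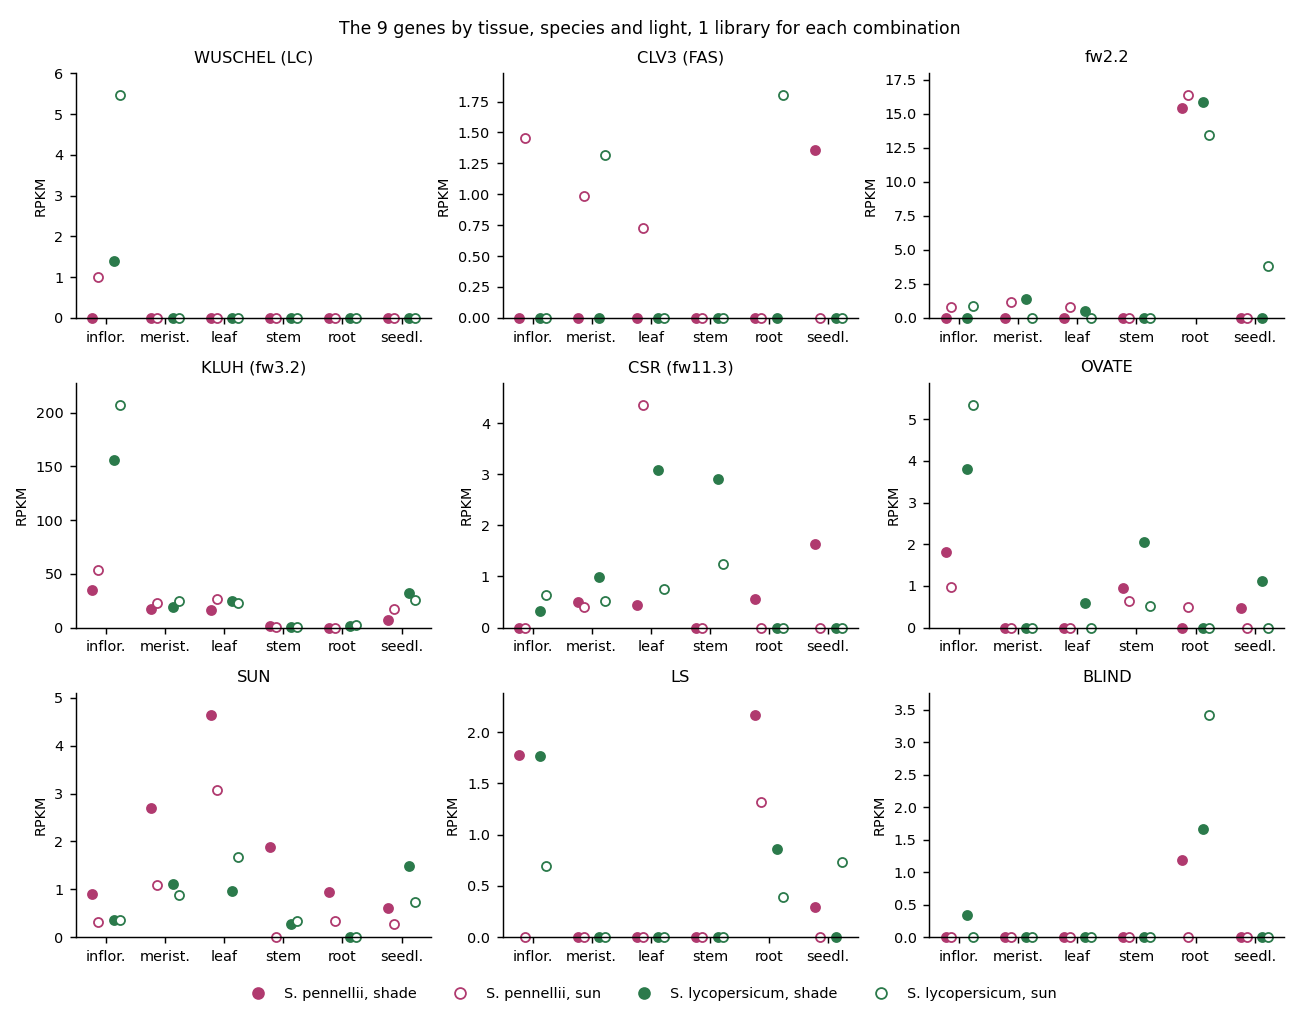
RPKM of the 9 genes in each factorial library, by tissue, with S. pennellii left of S. lycopersicum, shade filled and sun open. KLUH, OVATE and WUSCHEL are highest in inflorescence, fw2.2 and BLIND in root, and each point is 1 library.

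The locule-number genes were among the least read. WUSCHEL (Solyc02g083950.2.1), the homeodomain transcription factor that maintains stem cells in the meristem and underlies the locule number locus LC, had 0 and 1.0 RPKM in the shade and sun inflorescences of S. pennellii, against 1.39 and 5.45 RPKM in the shade and sun inflorescences of S. lycopersicum. The groups did not overlap, but they rest on 2 reads (exact 95% Poisson interval 0.242 to 7.22) in S. pennellii and 15 reads (8.40 to 24.7) in S. lycopersicum; these and later intervals cover counting error only. In the other 20 factorial libraries no WUSCHEL read was counted, the libraries labelled meristem included. With 3 reads over those libraries as the floor, WUSCHEL was at least 32.2-fold higher in inflorescence, or at least 13.1-fold without the S. lycopersicum sun inflorescence. This and later folds over a floor take the higher mean as measured and leave out its counting error. They are not strict lower bounds. WUSCHEL passed the filter through the S. lycopersicum inflorescences alone, so it could be tested only because it was high there. Both calls that follow thus describe the reads above and add no independent support. The limma fit with no filter called both as well (adjusted p = 0.00014 for the tissue and 0.014 for the species), but it rests on the same reads. Inflorescence minus the mean of the other tissues was called (log2 difference 1.24 ± 0.20 SE, limma adjusted p = 0.00023), and was 0.99 without the S. pennellii sun inflorescence and 0.88 without the S. lycopersicum sun inflorescence, both under the size required for a call. The species difference in inflorescence was called by limma (log2 difference -1.47 ± 0.37 SE, adjusted p = 0.022, n = 2 libraries each), and the inflorescence markers were lower in S. pennellii inflorescences too. Over the alternative settings the adjusted p ran between 0.014 and 0.14. The call was lost with a pseudocount of 0.1, after quantile normalization and with voom on the recovered reads, without the S. pennellii shade inflorescence (adjusted p = 0.23) and without the S. lycopersicum sun inflorescence (adjusted p = 0.36).

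In the seedling experiment WUSCHEL was read once in each of 7 of 28 libraries and not at all in the rest. The highest value was 0.720 RPKM in S. pennellii, 0.827 RPKM in S. habrochaites, 0.602 RPKM in S. pimpinellifolium and 0.478 RPKM in S. lycopersicum. Those values are each 1 read, the groups overlapped, and the lowest p of the exact two-sided permutation tests between species was 0.192 (S. pennellii against S. lycopersicum, n = 7 each).

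CLV3 (Solyc11g071380.1.1), the small secreted peptide that restricts WUSCHEL and underlies the fasciated locus FAS, gave 7 reads in the whole factorial experiment and 1 read in the 28 seedling libraries. In S. pennellii the single reads fell in the shade seedling (1.36 RPKM) and in the sun inflorescence (1.45 RPKM), leaf (0.727 RPKM) and library labelled meristem (0.985 RPKM). In S. lycopersicum 2 reads fell in the sun root (1.80 RPKM) and 1 in the sun library labelled meristem (1.32 RPKM). No tissue or species stood out, and no CLV3 difference was called (tissue F test, limma adjusted p = 0.79). The implied gene length of 282 bases is the shortest of the 9, so 1 read weighs more in RPKM here than for any other member. A species difference in CLV3 was not detectable at this depth.

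Among the fruit-weight genes, fw2.2 (Solyc02g090730.2.1), a small membrane-associated protein known as a negative regulator of cell division in the fruit, was read mainly in root. Root libraries had 15.4 RPKM in shade and 16.3 RPKM in sun in S. pennellii, against 15.8 RPKM in shade and 13.4 RPKM in sun in S. lycopersicum. The 4 root values lay close together and the species overlapped (log2 difference 0.11, 95% interval -1.20 to 1.43, limma adjusted p = 0.97). Outside root the highest value was 3.83 RPKM, in the sun seedling of S. lycopersicum, and 14 reads were counted in all 20 other libraries, against 78 reads in the 4 root libraries. Root stood 3.62 ± 0.34 (SE) above the mean of the other 5 tissues on the log2 scale (limma adjusted p = 3.2e-07), with no overlap. By tissue mean fw2.2 ran from 15.2 RPKM in root through 0.956 in seedling, 0.637 in the libraries labelled meristem, 0.435 in inflorescence and 0.332 in leaf to 0 in stem. Of these neighbours root and seedling differed (log2 difference 3.45, limma adjusted p = 1.3e-05), and the others did not differ beyond their spread. No fw2.2 read was counted in stem, where root was at least 23.9-fold higher with 3 reads over the 4 stem libraries as the floor. Stem was also called against the mean of the other tissues (-1.20, adjusted p = 0.011), and that call was lost without the sun stem of S. pennellii (adjusted p = 0.082) or of S. lycopersicum (adjusted p = 0.059).

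In the seedling experiment fw2.2 was too low for the filter. No read was counted in the 7 S. pennellii libraries, 1 library of S. habrochaites (0.942 RPKM) and 2 of S. pimpinellifolium (2.33 and 0.589 RPKM) held any, and 5 of 7 S. lycopersicum libraries did (2.46, 0.796, 1.05, 1.16 and 0.815 RPKM). S. lycopersicum thus had the most libraries with a read, 7 reads in all, and overlapped with every wild species at 0. The 7 reads of S. lycopersicum stood 2.09-fold above a floor of 3 reads over the S. pennellii group, and 1.48-fold without 1 S. lycopersicum library. The counting error of the 7 reads is not included in these folds. The exact two-sided permutation test gave p = 0.021 for S. pennellii against S. lycopersicum and p = 0.054 for S. habrochaites against S. lycopersicum (n = 7 each). These were 2 of 36 such tests over the 6 unfiltered genes and 6 species pairs, and the p of 0.021 was the only one under 0.05. Without the filter, limma gave an adjusted p of 0.013 for S. pennellii with a log2 difference of -0.81, under the size required for a call. The 3 root markers summed to 0.795 to 5.46 RPKM in S. pimpinellifolium seedlings, 0 to 4.24 RPKM in S. habrochaites, 6.05 to 22.5 RPKM in S. pennellii and 1.96 to 6.83 RPKM in S. lycopersicum. They were thus highest in S. pennellii, where fw2.2 had no read, and their part in the result was not tested.

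KLUH (Solyc03g114940.2.1), the enzyme of the CYP78A family behind the fruit-weight locus fw3.2 and known to promote organ growth, was the best-measured member. In seedlings, S. pimpinellifolium had 8.83 to 16.7 RPKM with a median of 12.7, S. habrochaites 9.73 to 22.5 RPKM with a median of 13.9, and S. pennellii 7.82 to 21.3 RPKM with a median of 13.3. S. lycopersicum had 36.7 to 68.0 RPKM with a median of 45.0. The lowest cultivated library lay above the highest of all 21 wild libraries, so no wild species overlapped with S. lycopersicum. The means were 13.2 ± 3.23 RPKM in S. pimpinellifolium, 14.7 ± 4.38 RPKM in S. habrochaites, 13.6 ± 4.57 RPKM in S. pennellii and 50.5 ± 12.1 RPKM in S. lycopersicum (SD, n = 7 each).

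KLUH was called lower in each wild species than in S. lycopersicum. The log2 difference was -1.86 for S. pimpinellifolium (limma adjusted p = 6.1e-08), -1.73 for S. habrochaites (adjusted p = 7.9e-08) and -1.84 for S. pennellii (adjusted p = 1.3e-08), each with an SE of 0.20. These comparisons share the 7 cultivated libraries. Between wild species the differences were 0.13 (95% interval -0.28 to 0.54) for S. habrochaites minus S. pimpinellifolium, 0.02 (-0.39 to 0.43) for S. pennellii minus S. pimpinellifolium and -0.12 (-0.53 to 0.29) for S. pennellii minus S. habrochaites. None was called (adjusted p = 0.66 to 0.95), and the intervals leave room for differences of up to about 0.54 on the log2 scale.

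Sequencing run records, numbered in the labels, fell into 3 blocks, and KLUH moved with them as well. Block 1 averaged 14.9 RPKM in S. pimpinellifolium, 18.7 RPKM in S. habrochaites, 16.2 RPKM in S. pennellii and 62.9 RPKM in S. lycopersicum. Block 2 averaged 10.9 RPKM in S. pimpinellifolium, 10.7 RPKM in S. habrochaites, 10.2 RPKM in S. pennellii and 41.2 RPKM in S. lycopersicum. Every species was thus higher in block 1, and block 3 held 2 libraries, both of S. habrochaites (12.6 RPKM). What the blocks stand for is not given in the sources used here. The species difference was as large within blocks: -2.03 and -1.84 for S. pimpinellifolium, -1.71 and -1.85 for S. habrochaites and -1.92 and -1.94 for S. pennellii, in block 1 and block 2, all called by limma. The 4 inflorescence markers summed to 9.06 to 18.8 RPKM in S. pimpinellifolium seedlings, 11.4 to 17.8 RPKM in S. habrochaites, 31.8 to 45.3 RPKM in S. pennellii and 12.8 to 19.5 RPKM in S. lycopersicum, highest in S. pennellii and overlapping among the other 3 species.

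Across tissues KLUH was highest in inflorescence. Inflorescences had 34.9 RPKM in shade and 53.6 RPKM in sun in S. pennellii, against 155.9 RPKM in shade and 207.1 RPKM in sun in S. lycopersicum. Both cultivated values exceeded both wild ones, and each inflorescence library exceeded every library of any other tissue. Seedlings of the factorial had 6.68 RPKM in shade and 17.1 RPKM in sun in S. pennellii, against 32.1 RPKM in shade and 25.8 RPKM in sun in S. lycopersicum, again with no overlap. Roots had no read in either S. pennellii library, against 1.44 RPKM in shade and 2.62 RPKM in sun in S. lycopersicum. With 3 reads over the S. pennellii roots as the floor, S. lycopersicum was at least 5.1-fold higher, or at least 3.62-fold without its sun root.

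In the other tissues the species overlapped. Leaves had 16.7 RPKM in shade and 26.6 RPKM in sun in S. pennellii, against 24.9 RPKM in shade and 22.9 RPKM in sun in S. lycopersicum. The libraries labelled meristem had 17.3 RPKM in shade and 23.3 RPKM in sun in S. pennellii, against 19.4 RPKM in shade and 24.7 RPKM in sun in S. lycopersicum. Stems had 1.02 RPKM in shade and 0.693 RPKM in sun in S. pennellii, against 0.443 RPKM in shade and 0.851 RPKM in sun in S. lycopersicum. These stem values rest on 6 reads in S. pennellii and 5 reads in S. lycopersicum, so they say little about a species difference in stem. The level of KLUH in leaf was near that in the factorial seedlings, while the species gap seen in seedlings and inflorescences was not seen there.

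The species difference was called in inflorescence (log2 difference -2.03 ± 0.34 SE, limma adjusted p = 0.0017), where the summed inflorescence markers were lower in S. pennellii as well, root (-1.57 ± 0.34 SE, adjusted p = 0.0071) and seedling (-1.34 ± 0.34 SE, adjusted p = 0.021), with 2 libraries of each species. It was not called in leaf (-0.17, 95% interval -0.90 to 0.56), the libraries labelled meristem (-0.12, -0.85 to 0.61) or stem (0.18, -0.55 to 0.91). The intervals of leaf and of the libraries labelled meristem do not reach the difference of -2.03 measured in inflorescence. A test of whether the difference varied among the 6 tissues, the species by tissue interaction, gave a limma adjusted p of 0.026, in a setting where 8.46% of all genes passed. That call was lost when any 1 of 8 of the 24 libraries was left out, with adjusted p between 0.017 and 0.069 over all omissions. Those 8 were the shade and sun inflorescences, the shade and sun libraries labelled meristem and the sun root of S. pennellii, and the shade stem, the shade library labelled meristem and the sun inflorescence of S. lycopersicum. The inflorescence difference was called whichever library was left out. The root call was lost without the sun root of S. pennellii (adjusted p = 0.10) or of S. lycopersicum (adjusted p = 0.062), and the seedling call without the shade seedling of S. pennellii (adjusted p = 0.26) or of S. lycopersicum (adjusted p = 0.22). Averaged over tissues, the difference was -0.84 ± 0.14 SE (adjusted p = 0.00028), under the size required for a call.

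**Figure D3:**
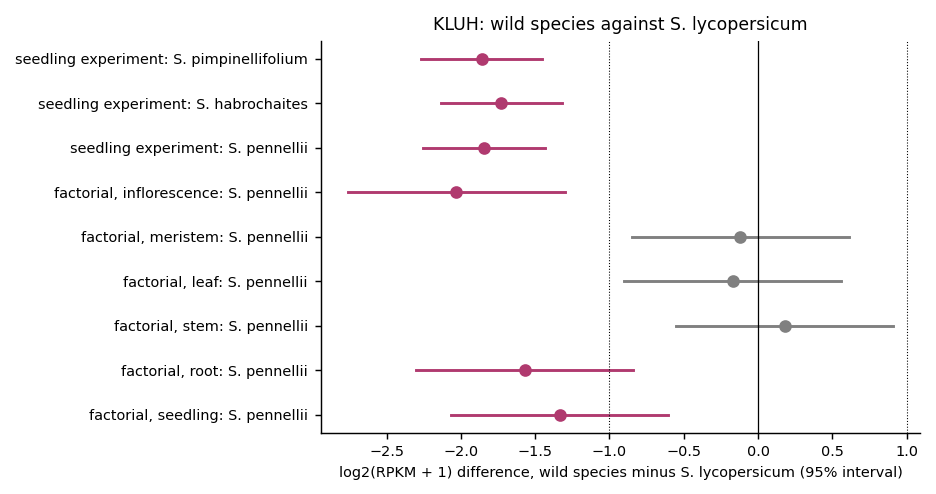
KLUH as the difference in log2(RPKM + 1), wild species minus S. lycopersicum, with 95% intervals; coloured points were called and dotted lines mark a difference of 1. The differences in the seedling experiment lie between -1.86 and -1.73, inflorescence is at -2.03, and leaf, stem and the libraries labelled meristem lie near 0.

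By tissue mean KLUH ran from 112.9 RPKM in inflorescence through 22.8 in leaf, 21.2 in the libraries labelled meristem and 20.4 in seedling to 1.01 in root and 0.752 in stem. Inflorescence differed from leaf (limma adjusted p = 1.2e-05; 35.7% of all genes were called in this pair) and seedling from root (adjusted p = 3e-08; 29.7% of all genes), while leaf, the libraries labelled meristem and seedling did not differ beyond their spread, nor did root and stem. In all, 11 of 15 tissue pairs were called for KLUH. Against the mean of the other 5 tissues on the log2 scale, inflorescence was 3.52 higher, leaf 1.20 higher and the libraries labelled meristem 1.09 higher, while stem fell by 3.30 and root fell by 3.32, all called by limma. Because that mean is taken over logs, leaf and the libraries labelled meristem count as higher there although their mean RPKM lies below the arithmetic mean of the other libraries.

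CSR (Solyc11g071940.1.1), known as a cell size regulator behind the fruit-weight locus fw11.3, was low in seedlings. S. pimpinellifolium had 0 to 3.28 RPKM with a median of 0.666, S. habrochaites 0 to 1.59 RPKM with a median of 0.464, and S. pennellii 0 to 5.92 RPKM with a median of 2.35. S. lycopersicum had 1.13 to 4.43 RPKM with a median of 2.0. All groups overlapped; S. pennellii spanned the widest range and S. habrochaites had no library above 1.59 RPKM. The means were 0.918 ± 1.19 RPKM in S. pimpinellifolium, 0.581 ± 0.665 RPKM in S. habrochaites, 2.69 ± 2.28 RPKM in S. pennellii and 2.37 ± 1.24 RPKM in S. lycopersicum (SD, n = 7 each).

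CSR was called lower in S. habrochaites than in S. lycopersicum (log2 difference -1.12 ± 0.39 SE, limma adjusted p = 0.028) and higher in S. pennellii when set against S. habrochaites (1.04 ± 0.39 SE, adjusted p = 0.031). S. pimpinellifolium missed the threshold against S. lycopersicum (-0.94, adjusted p = 0.11), and S. pennellii minus S. lycopersicum was -0.08 (95% interval -0.89 to 0.73). The S. habrochaites call against S. lycopersicum was lost without S. lycopersicum replicate 2, 4 or 6 or without S. habrochaites replicate 15, 16 or 20 (adjusted p = 0.050 to 0.065). The call between S. pennellii and S. habrochaites was lost without S. habrochaites replicate 15, 16 or 20 or S. pennellii replicate 23, 24 or 26 (adjusted p = 0.064 to 0.085), and also with a pseudocount of 0.1, median-ratio scaling or quantile normalization.

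CSR moved with the run-record blocks too. Block 1 averaged 1.61 RPKM in S. pimpinellifolium, 0.903 RPKM in S. habrochaites, 4.30 RPKM in S. pennellii and 3.56 RPKM in S. lycopersicum, whereas block 2 averaged 0 RPKM in S. pimpinellifolium and S. habrochaites, 0.543 RPKM in S. pennellii and 1.48 RPKM in S. lycopersicum. Blocks 1 and 2 did not overlap in any of the 4 species. S. habrochaites minus S. lycopersicum was called in block 1 (-1.29, adjusted p = 0.020) and in block 2 (-1.30, adjusted p = 0.015). S. pimpinellifolium minus S. lycopersicum was -0.89 in block 1 (adjusted p = 0.12) and -1.30 in block 2 (adjusted p = 0.018), and with the block as a covariate it was called (-1.12, adjusted p = 0.0014). S. pennellii minus S. pimpinellifolium, not called over all libraries (0.86, adjusted p = 0.076), was called in block 1 (1.07, adjusted p = 0.014) and not in block 2 (0.57, adjusted p = 0.18), and with the block as a covariate it was 0.86 (adjusted p = 0.0043), under the size required. S. pennellii minus S. habrochaites was 1.47 in block 1 (adjusted p = 0.0037) and 0.57 in block 2 (adjusted p = 0.24), and over its alternatives the adjusted p ran between 0.0012 and 0.24.

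In the factorial experiment CSR was highest in leaf, where S. pennellii had 0.437 RPKM in shade and 4.35 RPKM in sun, against 3.09 RPKM in shade and 0.750 RPKM in sun in S. lycopersicum. The species overlapped there, and shade and sun ran in opposite directions in them, on 1 library each. In stem S. pennellii had no read in either library, against 2.92 RPKM in shade and 1.24 RPKM in sun in S. lycopersicum (log2 difference -1.57, limma adjusted p = 0.084). The stem values did not overlap but rest on 8 reads. Tissue means ran from 2.16 RPKM in leaf and 1.04 in stem to 0.141 in root, with no neighbours differing beyond their spread. Of 15 tissue pairs 3 were called, all with leaf higher: leaf minus root (1.28, limma adjusted p = 0.012), leaf minus seedling (1.1, adjusted p = 0.049) and inflorescence minus leaf (-1.17, adjusted p = 0.024). In the pair of inflorescence and leaf 35.7% of all genes were called, and no share is given for the pairs of leaf with root and seedling. The tissue F test missed the threshold (adjusted p = 0.071), and leaf minus the mean of the other tissues was 0.998 on the log2 scale (adjusted p = 0.015), just under the size required for a call.

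The fruit-shape genes were both low. OVATE (Solyc02g085500.2.1), a repressor protein whose loss elongates the fruit, was highest in inflorescence, with 1.82 RPKM in shade and 0.978 RPKM in sun in S. pennellii, against 3.8 RPKM in shade and 5.34 RPKM in sun in S. lycopersicum. Both cultivated values lay above both wild ones, on 6 and 24 reads, but the difference missed the threshold (log2 difference -1.22 ± 0.39 SE, limma adjusted p = 0.065). Stem followed with 0.945 and 0.642 RPKM in shade and sun in S. pennellii, against 2.05 and 0.526 RPKM in shade and sun in S. lycopersicum, which overlapped. The 4 libraries labelled meristem had no OVATE read. Inflorescence was 1.51 ± 0.21 (SE) above the mean of the other tissues (adjusted p = 6.8e-05), although its values overlapped with those of stem. The tissue means were 2.98 RPKM in inflorescence, 1.04 in stem, 0.395 in seedling, 0.145 in leaf and 0.126 in root. Inflorescence minus stem was 0.88 (adjusted p = 0.022), under the size required, and no lower neighbours differed beyond their spread. In the seedling experiment 18 reads were counted in 14 of 28 libraries, the highest value was 1.69 RPKM in S. pimpinellifolium, and no species pair differed by the exact permutation test (lowest p = 0.251, S. pennellii against S. lycopersicum, n = 7 each).

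SUN (Solyc10g079240.1.1), an IQ-domain protein whose higher expression is known to elongate the fruit, was at or below 4.05 RPKM in every seedling library. S. pimpinellifolium had 0 to 3.29 RPKM with a median of 0.779, S. habrochaites 0.360 to 1.14 RPKM with a median of 0.733, and S. pennellii 0.494 to 4.05 RPKM with a median of 1.4. S. lycopersicum had 0 to 1.58 RPKM with a median of 0.745. S. pennellii had the highest median, and all groups overlapped. S. pennellii minus S. lycopersicum was 0.68 ± 0.27 SE on the log2 scale (limma adjusted p = 0.045), under the size required for a call, and the test over the 4 species missed the threshold (adjusted p = 0.089). Within blocks the difference was 0.89 in block 1 (adjusted p = 0.11) and 0.34 in block 2 (adjusted p = 0.51).

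In the factorial experiment SUN was highest in leaf, with 4.64 RPKM in shade and 3.08 RPKM in sun in S. pennellii, against 0.959 RPKM in shade and 1.68 RPKM in sun in S. lycopersicum. Both S. pennellii leaves lay above both S. lycopersicum leaves (log2 difference 1.07 ± 0.34 SE, limma adjusted p = 0.062, which missed the threshold). Roots gave 0.945 and 0.334 RPKM in shade and sun in S. pennellii, while neither S. lycopersicum root had a read. In the factorial seedlings both S. pennellii values lay below both S. lycopersicum values, with 0.607 and 0.280 RPKM in shade and sun in S. pennellii, against 1.48 and 0.744 RPKM in shade and sun in S. lycopersicum (-0.54, adjusted p = 0.34). The tissue means were 2.59 RPKM in leaf, 1.45 in the libraries labelled meristem, 0.778 in seedling, 0.624 in stem, 0.485 in inflorescence and 0.320 in root, and no neighbours in this order differed beyond their spread. The species difference averaged over tissues was 0.38 ± 0.14 SE (adjusted p = 0.042), too small for a call. Leaf minus the mean of the other tissues was called (1.03 ± 0.19 SE, adjusted p = 0.00035) and was 0.96 without the sun leaf of S. pennellii, 0.98 without its sun stem and 0.89 without the sun leaf of S. lycopersicum, all under the size required.

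The branching genes were both read in root, and LS in inflorescence as well. LATERAL SUPPRESSOR (Solyc07g066250.1.1), a GRAS-family transcription factor, had 2.17 RPKM in shade and 1.3 RPKM in sun in S. pennellii roots, against 0.865 RPKM in shade and 0.394 RPKM in sun in S. lycopersicum roots. The root values did not overlap between the species, but the difference missed the threshold (log2 difference 0.75 ± 0.39 SE, limma adjusted p = 0.26). Inflorescences had 1.78 and 0 RPKM in shade and sun in S. pennellii, against 1.76 and 0.694 RPKM in shade and sun in S. lycopersicum, which overlapped. Stem, leaf and the libraries labelled meristem gave no LS read in any of their 12 libraries. With 3 reads over each tissue as the floor, root was at least 8.21-fold above the libraries labelled meristem, 7.18-fold above leaf and 4.87-fold above stem. Without the shade root of S. pennellii these folds were 5.94, 5.2 and 3.52. LS passed the filter through root and inflorescence libraries alone, so it could be tested only because it was high there. Expression varied over tissues (limma F test, adjusted p = 0.0043), a result which that entry favoured. No tissue differed from the mean of the others by the size required, and root (1.19 RPKM) and inflorescence (1.06 RPKM) did not differ beyond their spread. In seedlings 14 reads were counted over 10 of 28 libraries, and no value passed 0.861 RPKM.

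BLIND (Solyc11g069030.1.1), a MYB transcription factor, had 1.19 RPKM in shade and 0 RPKM in sun in S. pennellii roots, against 1.67 RPKM in shade and 3.42 RPKM in sun in S. lycopersicum roots. Outside root a single read was counted in the other 20 libraries, in the shade inflorescence of S. lycopersicum. BLIND passed the filter through the root libraries alone, so it could be tested only because it was high there. The tissue and species calls that follow thus describe these reads and add no independent support. The limma fit with no filter called both as well (adjusted p = 2.9e-05 for the tissue and 0.014 for the species), but it rests on the same reads. Root exceeded the mean of the other tissues by 1.15 ± 0.18 SE on the log2 scale (limma adjusted p = 7.8e-05). That value was 0.87 without the shade root of S. pennellii, 0.95 without the sun root of S. lycopersicum and 0.93 after quantile normalization, each under the size required. The root difference between species was called (-1.21 ± 0.33 SE, adjusted p = 0.028) on 2 reads (exact 95% Poisson interval 0.242 to 7.22) in S. pennellii and 11 reads (5.49 to 19.7) in S. lycopersicum. The call was lost without the sun root of S. pennellii (adjusted p = 0.35) or of S. lycopersicum (adjusted p = 0.22), and with a pseudocount of 0.1, quantile normalization or voom, with adjusted p between 0.014 and 0.10 over the alternatives. In seedlings BLIND was read in 5 of 28 libraries, in none above 2.49 RPKM.

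**Figure D4:**
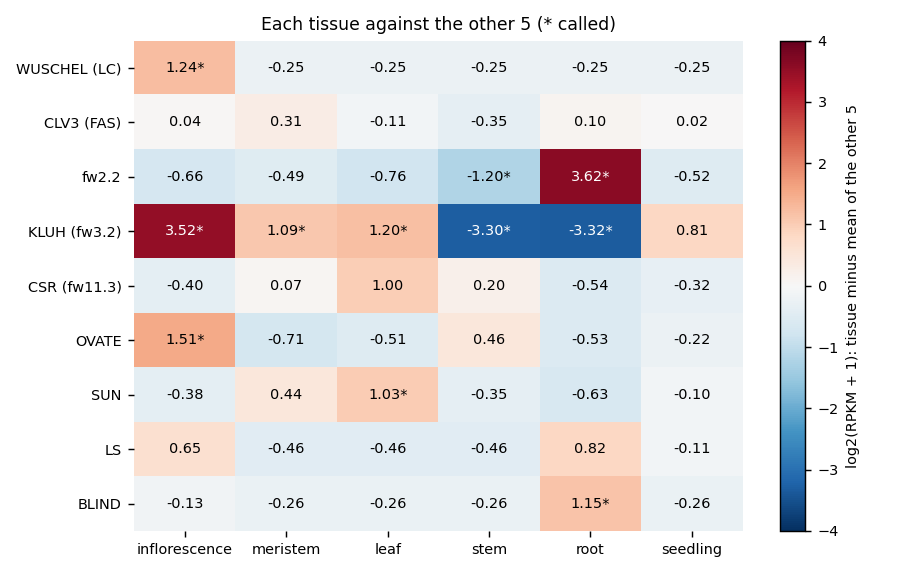
Each tissue minus the mean of the other 5 tissues in log2(RPKM + 1), over both species and both lights, with called cells marked by an asterisk. The highest cell of fw2.2 is root (3.62) and that of KLUH is inflorescence (3.52), and no cell of CLV3, CSR or LS was called.

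The calls were counted over the members and set beside those of all genes. The tissue F test required an adjusted p under 0.05 alone, whereas single contrasts also required a log2 difference of at least 1. Their counts therefore do not rank tissue against species or light. The shares of all genes given are those passing the limma thresholds. Counts at an unadjusted p or by voom have no such share beside them and are not read as results about the members. Expression varied over the 6 tissues for 7 of 9 genes, all but CLV3 and CSR, against 77.3% of all genes, so the share was near that of all genes. Inflorescence was called against the other tissues for 3 genes, all higher (12.3% of all genes were called higher there). WUSCHEL, 1 of these, and BLIND, 1 of those called in root, had reached the filter through that tissue alone. LS, among the 7 genes that varied over tissues, had reached it through root and inflorescence alone. Root was called higher for fw2.2 and BLIND (17.7% of all genes) and lower for KLUH (12%), and leaf was called higher for 2 genes, KLUH and SUN (7.13%). Stem was called lower for 2, KLUH and fw2.2 (10.3%), and the libraries labelled meristem higher for KLUH alone (8.72%). The factorial seedlings were called for 0 genes (9.22%; limma, with 1 gene at an unadjusted p under 0.05 and 1 call by voom). The 1 gene was KLUH, which missed on size alone (0.81 ± 0.19 SE, limma adjusted p = 0.0066). Between S. pennellii and S. lycopersicum, 2 of 9 genes were called lower in inflorescence (6.12% of all genes), 2 in root (5.98%) and 1 in seedling (6.97%), and none was called higher. Among these, WUSCHEL in inflorescence and BLIND in root had passed the filter through the tissue tested alone. Each was called in 3 of 6 alternative settings, and no direction shared by the members is read from these counts. The median log2 difference over the 9 genes in inflorescence was -0.38, against -0.24 over all genes, and in root 0.11, against 0 over all genes.

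No member was called between species in leaf (9.52% of all genes), stem (12.1%) or the libraries labelled meristem (5.68%). At an unadjusted p under 0.05 limma passed 1 gene in leaf, 1 in stem and 0 in the libraries labelled meristem, and voom called 0 in each. Averaged over tissues 0 of 9 were called (10.6% of all genes), with 2 at an unadjusted p under 0.05 and 1 called by voom. Those 2, KLUH (-0.84, limma adjusted p = 0.00028) and SUN (0.38, adjusted p = 0.042), missed on size alone. In the seedling experiment 1 of the 3 genes tested was called lower in S. pimpinellifolium than in S. lycopersicum (2.83% of all genes), 2 were lower in S. habrochaites (9.2%) and 1 in S. pennellii (6.95%), and none was called higher. Among the wild pairs, limma called CSR for S. pennellii minus S. habrochaites, with the higher level in S. pennellii (16.1%). For S. habrochaites against S. pimpinellifolium (10.9% of all genes) and S. pennellii against S. pimpinellifolium (20.4%), limma called 0. At an unadjusted p under 0.05 the S. habrochaites pair had 0 and the S. pennellii pair 1, and voom called 0 in both. The test over the 4 species passed 2 of 3, KLUH and CSR (65.8% of all genes).

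Between shade and sun no member was called by limma: 0 of 9 passed in S. pennellii (0.00888% of all genes), in S. lycopersicum (0%) or over both (0%). At an unadjusted p under 0.05 limma passed 2 genes in S. pennellii, 0 in S. lycopersicum and 2 over both, and voom called 0 in each. No share of all genes at these criteria is given. The 2 genes passed in S. pennellii were SUN and KLUH. SUN in S. pennellii averaged 1.95 RPKM in shade and 0.853 RPKM in sun, and was higher in shade in 6 of 6 tissues (log2 difference 0.70 ± 0.20 SE, unadjusted p = 0.0029, adjusted p = 0.47). In S. lycopersicum SUN averaged 0.696 RPKM in shade and 0.667 RPKM in sun and was higher in shade in 3 tissues, lower in 2 and equal in 1. KLUH in S. pennellii averaged 12.8 RPKM in shade and 20.2 RPKM in sun (-0.44 ± 0.20 SE, unadjusted p = 0.043, adjusted p = 0.80), lower in shade in 4 of 6 tissues. Whether the effect of light differed between the species was not tested.

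Other genes of the shoot branching and meristem-size pathways were taken from a list of 14 identifiers, assigned from published work and not annotated in the files; 13 are in the table. Of the 6 that passed the seedling filter, limma called 1 for S. habrochaites and 1 for S. pennellii against S. lycopersicum, in both cases Solyc08g062950.2.1 and in both cases lower (9.2% of all genes were called lower in S. habrochaites and 6.95% in S. pennellii). It averaged 4.39 ± 1.73 RPKM in S. pimpinellifolium, 0.845 ± 0.351 RPKM in S. habrochaites, 1.44 ± 1.15 RPKM in S. pennellii and 5.74 ± 0.655 RPKM in S. lycopersicum (SD, n = 7 each). S. habrochaites (log2 difference -1.89, adjusted p = 2.2e-06) and S. pennellii (-1.63, adjusted p = 1.2e-05) did not overlap with S. lycopersicum, while S. pimpinellifolium overlapped with it (-0.38, 95% interval -0.93 to 0.17, adjusted p = 0.40). Of the 9 that passed in the factorial experiment, 1 was called between the species over all tissues (10.6% of all genes), Solyc08g066650.2.1, which was lower in S. pennellii (-1.09 ± 0.16 SE, adjusted p = 0.00011). In stem it had 0.321 and 1.18 RPKM in S. pennellii, against 12.1 and 15 RPKM in S. lycopersicum. All 9 varied over the tissues (77.3% of all genes).

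Over the 24 factorial libraries, the genes most like each member were sought by Pearson correlation of log2(RPKM + 1), for the 3 members that averaged at least 1 RPKM. Those most like fw2.2 were Solyc05g050730.1.1 (r = 0.945) and Solyc06g060500.1.1 (r = 0.941), both highest in root. KLUH was most like Solyc08g079100.2.1 (r = 0.914) and Solyc07g008180.2.1 (r = 0.889), both highest in inflorescence. SUN was most like Solyc04g077640.2.1 (r = 0.778) and Solyc03g005000.2.1 (r = 0.775), both highest in leaf. The points share tissues and libraries, so r is a description of these 24 libraries.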

How the data were processed

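The RNA-seq libraries were deposited as 1 table of RPKM for 28298 gene models, made by the authors. The reads were processed with CASAVA 1.4 and BWA 0.5.7, per the submitters' processing notes. Genome build, annotation, counting rule and strand setting were not given in the sources used here, so reads of near-identical copies or overlapping genes may be split or shared. All values of the 25942 gene models with any value came out as whole reads within 0.02 reads once divided by the value of 1 read, and the gene lengths these imply were used for the read counts. Depth is the sum of the recovered reads in a library, 1477052 to 5556059.

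Samples were grouped from the labels. limma 3.58.1 (R 4.3.3) was fitted on log2(RPKM + 1) over 19536 genes in seedlings (species) and 22512 in the factorial (species by tissue, with a light term for each species, 10 residual degrees of freedom). Tables and exact permutation tests used Python 3.11.15, numpy 2.4.6, pandas 2.3.3 and scipy 1.17.1, and figures matplotlib 3.10.9. The fits were tested on simulated data. Alternatives were a pseudocount of 0.1, no filter, median-ratio scaling, quantile normalization, voom on the recovered reads, the run-record block, no light term, and leaving out each library. No 2 seedling libraries of a species agreed within sampling noise by a chi-square test of their reads, so each was counted. Such disagreement can also arise between sequencing runs, so it does not show that the libraries came from separate plants.

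Gene names come from the list of members; the RefSeq table (assembly SLM_r2.1) holds 6 of the 9 symbols, on the chromosome the identifier gives, and none for KLUH, CSR and BLIND. None of the table's identifiers was found in it, so no coordinates are given. All 9 members are named, pathway genes where called, and 2 like genes for each member averaging at least 1 RPKM. Members and lists were chosen with earlier results of these data known. The tissue markers and pathway identifiers come from published assignments that the files do not hold.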

Additional observations from a re-analysis of the deposited data

Results flagged for a closer look

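In 12 of 36 groups of 7 seedling libraries, 1 library stood far from the other 6; chance gives this in about 1 group in 20 for continuous values, and in 8 of the 12 the library was the only one of its group with any read. S. pennellii replicate 27 had 2.49 RPKM of BLIND (3 reads). S. habrochaites replicate 17 had 0.942 RPKM of fw2.2, and its replicate 18 had 0.218 RPKM of LATERAL SUPPRESSOR and 0.42 RPKM of BLIND. In S. pimpinellifolium, replicate 8 had 1.67 RPKM of CLV3 and 1.69 RPKM of OVATE, replicate 9 had 0.602 RPKM of WUSCHEL, replicate 10 had 2.33 RPKM of fw2.2, replicate 12 had 0.434 RPKM of BLIND and replicate 13 had 3.29 RPKM of SUN (8 reads). In S. lycopersicum, replicate 4 had 0.478 RPKM of WUSCHEL and replicate 2 had 1.81 RPKM of BLIND. None of these touches KLUH or CSR.

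The S. pennellii minus S. lycopersicum difference of KLUH varied over the 6 tissues (species by tissue interaction, limma adjusted p = 0.026), between -2.03 in inflorescence and 0.18 in stem. That call was lost when any 1 of 8 of the 24 libraries was left out. The stem value rests on 6 reads in S. pennellii and 5 reads in S. lycopersicum, a level at which log2(RPKM + 1) understates any difference.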

How the results depend on the processing

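The 31 called results of the 9 genes, tissue pairs not included, hold single contrasts and F tests, which have no direction. No single contrast among them changed direction under any alternative or omission run. Of the 31, 27 were called in all alternatives other than omissions and 20 whichever library was left out. They include results of WUSCHEL, BLIND and LS, which passed the filter only through tissues where they were high. For those genes the counts add no independent support. A pseudocount of 0.1 gave 18 calls of a tissue against the others in place of 11, and 1 call in place of 0 for S. pennellii against S. lycopersicum over all tissues; voom gave 22 and 1. Quantile normalization gave 3 calls in place of 5 for the species within tissues. The cause was not tested. Shares of all genes under these settings are not given here, so these counts are not read as particular to the members. Leaving out each library gave 3 to 7 calls over the seedling species pairs (5 with all libraries), 2 to 3 for the test over the 4 species (2), 3 to 6 for the species within tissues (5), 10 to 13 for a tissue against the others (11), 7 to 8 for the tissue F test (7), 0 to 2 for the interaction (1), and 0 for the light contrasts and for the species over all tissues. An omission in the factorial leaves 1 library in a tissue of a species, which is then assumed to vary like the others. No paired analysis was possible because the seedling groups share no replicate numbers and the factorial has no replicate numbers, with 1 library for each combination; shade and sun of a tissue are already matched there by the tissue term of each species. Depth limits WUSCHEL, CLV3, OVATE, LATERAL SUPPRESSOR and BLIND to a few reads in a group, where small differences were not detectable.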
